A study of Mus musculus with 26 samples.

Results

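The genes described here are 8 members of the MYC and MAX network: Myc, Mycn, Mycl, Max, Mxd1, Mxd4, Mxi1 and Mnt. They were taken by name, and their H3K4me3 peaks are all those overlapping the mm10 span of the gene or the 5 kb on either side. All 8 members, of 21887 protein-coding genes placed in the same way, had peaks under this rule: 16 of the 48054 peaks in the Early-B list and 14 of the 31414 in the progenitor list. H3K4me3, trimethylation of lysine 4 on histone H3, is found at the starts of genes that are active or poised. The progenitors were mouse cells of genotype Ebf1-/-, which lack the B lineage factor EBF1. The Early-B cells were the same Ebf1-/- progenitors given EBF1 through the MigR1-EBF1.ER vector, a fusion switched on by 4-O-Hydroxy-tamoxifen, and held with that drug for 2 days on OP9 stroma, where IL-7, SCF and FLT3-L were supplied. Their EBF1 therefore came from the vector and not from the cells' own gene. The age of the mice, the culture of the progenitors used for this assay and whether the cells came from 1 line are not stated in those labels. Each group has 2 immunoprecipitated and 2 input samples in the labels and 1 peak list in the files, so no value below has a replicate error and no difference was tested. In chromatin from a whole culture, a change in the share of cells that carry the mark and a change within each cell cannot be told apart.

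MYC, MYCN and MYCL are basic helix-loop-helix leucine zipper transcription factors that bind DNA only as a pair with MAX, mostly at the E-box CACGTG, and raise genes for growth, ribosome production and cell division. The MXD proteins (MXD1, MXD4 and MXI1 here) and MNT pair with the same partner, bind the same sites and bring in SIN3 and histone deacetylases to lower those genes. In B cell development MYC drives proliferation of cells responding to IL-7, and the MYCN paralogue is used by early blood progenitors.

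The canonical E-box stood in 3 of the 7 members that have an entry in the RefSeq promoter table (GRCm38.p6, the assembly behind mm10). Those 3 promoters are shown because they carry the site that the network's own proteins bind and lie wholly inside a peak of both lists. Each window runs from 250 bases before the start to 50 bases from it, is printed 5′ to 3′ on the gene's strand, and has the CACGTG match in capitals. The Max window is chr12:76962199-76962498 on the minus strand, the Mnt window is chr11:74830674-74830973 on the plus strand, and the Mxd4 window is chr5:34187661-34187960 on the minus strand.
Max: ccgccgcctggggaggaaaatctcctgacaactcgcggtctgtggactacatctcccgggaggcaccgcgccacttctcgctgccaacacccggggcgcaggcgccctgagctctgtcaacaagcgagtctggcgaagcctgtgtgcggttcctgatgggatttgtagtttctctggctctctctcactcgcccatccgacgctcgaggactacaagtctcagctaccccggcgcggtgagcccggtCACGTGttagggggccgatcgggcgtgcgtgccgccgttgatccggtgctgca
Mnt: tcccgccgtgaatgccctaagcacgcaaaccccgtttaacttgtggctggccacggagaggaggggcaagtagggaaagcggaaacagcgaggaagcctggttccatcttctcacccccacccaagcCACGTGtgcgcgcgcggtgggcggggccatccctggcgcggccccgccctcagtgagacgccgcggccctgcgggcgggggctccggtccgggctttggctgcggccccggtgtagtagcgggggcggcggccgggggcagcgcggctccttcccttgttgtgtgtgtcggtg
Mxd4: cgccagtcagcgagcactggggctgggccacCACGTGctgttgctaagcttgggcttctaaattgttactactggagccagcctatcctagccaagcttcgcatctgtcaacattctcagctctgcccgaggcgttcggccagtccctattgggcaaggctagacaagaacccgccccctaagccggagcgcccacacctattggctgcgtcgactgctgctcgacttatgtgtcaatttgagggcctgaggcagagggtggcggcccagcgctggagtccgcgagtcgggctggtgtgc

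In Max the match begins 3 bases before the annotated start and so spans it. In Mnt it begins 123 bases before the start and in Mxd4 219 bases before. CACGTG reads the same on both strands, so 1 search covers both, and no other motif was searched. Of 27025 genes with a promoter entry, 2187 (8.09%) hold the motif in at least 1 window. By window the share was 7.15% of all 32851, 10.4% of the 12828 met by a peak in both lists and 4.98% of the 17913 met by a peak in neither. The windows of Mycn, Mycl, Mxd1 and the 3 starts of Mxi1 hold no CACGTG. A match is a description of these letters and no evidence of binding. The 9 member windows were 56.0 to 76.7% G and C, with 14 to 49 CpG dinucleotides each, against medians of 61.7% and 22 over windows met by a peak in both lists and 47.7% and 3 over those met in neither. The members' own medians were 64.0% and 22.

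Every member had a peak in both lists, as did 64.5% of all protein-coding genes. None had peaks in Early-B only (8.47% of all genes) or in progenitors only (1.76%). All 9 annotated starts of the 7 members with a promoter entry were covered in both lists, against 51.0% of the starts of protein-coding genes. The whole 300-base window of each of those starts lay within a peak in both lists. The members differed among themselves in how far the mark extended, how high it stood in each list and how many separate peaks they held.

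**Figure D1:**
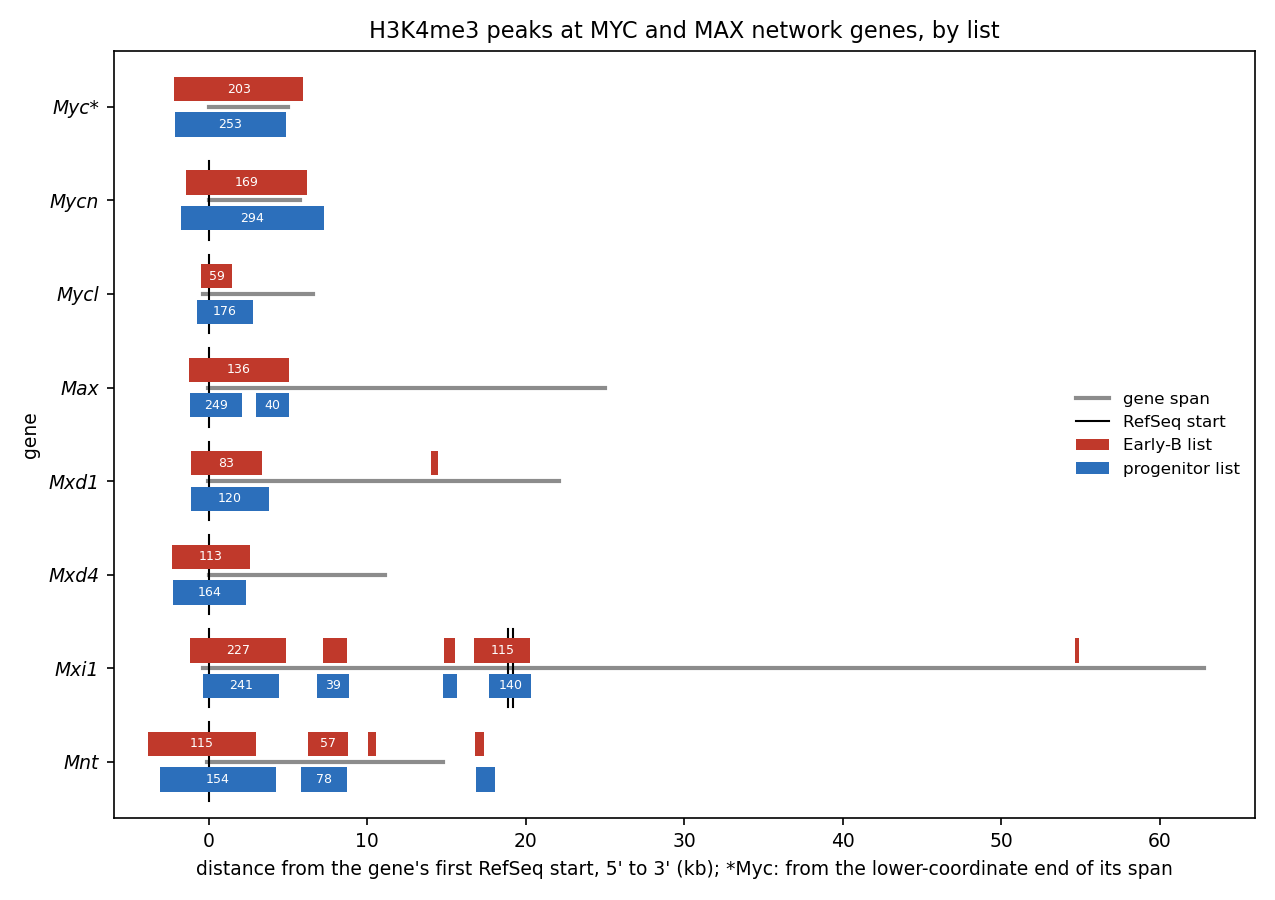
H3K4me3 peaks at the 8 genes, as bars of their true length against distance in kb from the gene's first RefSeq start (for Myc, which has no promoter entry, from the lower-coordinate end of its span), with Early-B peaks above and progenitor peaks below each grey gene span. Numbers in the bars are the authors' pileup of peaks at least 1.9 kb long, and black ticks are RefSeq starts. Myc and Mycn are covered from end to end or nearly so, while the other members are marked around their starts. Further peaks that cover no start lie at Mxi1 and Mnt in both lists, at Max in progenitors and at Mxd1 in Early-B.

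The MYC genes come first. The Myc peak ran from 61983169 to 61991309 on chromosome 15 in the Early-B list, with a length of 8141 bp and a pileup of 203. Pileup is the authors' read coverage of a peak. The progenitor peak ran from 61983210 to 61990193, with a length of 6984 bp and a pileup of 253. The gene spans 61985341 to 61990361, so the Early-B peak covered all of it and the progenitor peak 96.7%, ending 168 bp short of the higher-coordinate end. The lower edges lay 41 bp apart and the higher edges 1116 bp apart, with the Early-B peak reaching further on both sides. Myc has no entry in the promoter table.

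Mycn was covered in full in both lists. Its peak on chromosome 12 ran from 12935630 to 12943241 in Early-B (7612 bp, pileup 169) and from 12934579 to 12943602 in progenitors (9024 bp, pileup 294). The gene spans 12936093 to 12941836 on the minus strand. Here the progenitor peak was the longer and held the Early-B peak entirely, with 361 bp more upstream and 1051 bp more downstream. Cover of at least 95% of the span in both lists, a threshold set after these values were seen, was met by Myc and Mycn. It was met by 1.57% of all protein-coding genes and by 0.923% of the 1300 genes with a span of 5 to 7 kb. That class brackets the spans of these genes, 5021 bp at Myc and 5744 bp at Mycn, and leaves out shorter genes.

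Mycl, the remaining MYC gene, had the shortest cover of the 8 in both lists. On chromosome 4 its peak ran from 122995421 to 122997421 in Early-B (2001 bp, pileup 59.1, fold enrichment over the authors' background 8.10). The progenitor peak ran from 122995209 to 122998723 (3515 bp, pileup 176, fold 22.8). The Early-B peak lay inside the progenitor peak and was 0.569 times as long. It reached 510 bp upstream and 1490 bp downstream of the start at 122995931, against 722 and 2792 bp in progenitors. The gene spans 122995588 to 123002490, of which 26.6% and 45.4% were covered.

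Max encodes the shared partner of all the other proteins. Its Early-B peak on chromosome 12 was a continuous 6320 bp from 76957183 to 76963502, with a pileup of 136. In progenitors the same stretch held a pair of peaks. The one over the start, from 76960171 to 76963458, was 3288 bp long with a pileup of 249, and the one further into the gene, from 76957154 to 76959262, was 2109 bp long with a pileup of 39.6. The gap between them was 908 bp. The outer edges differed by 29 bp inside the gene and by 44 bp upstream of the start, so both lists marked nearly the same stretch, in 1 piece in Early-B and in 2 in progenitors. The gene spans 76937269 to 76962323, and the CACGTG at its start shown above lies within the taller progenitor peak.

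Of the 8 genes, the antagonists Mxd1 and Mxd4 had the smallest net differences in covered length between lists, -6 and 228 bp in Early-B minus progenitor. The start peak of Mxd1 on chromosome 6 ran from 86665822 to 86670271 in Early-B (4450 bp, pileup 82.6) and from 86665385 to 86670282 in progenitors (4898 bp, pileup 120). Its upstream edges lay 11 bp apart and its downstream edges 437 bp apart, where the median of the downstream gap over all starts covered in both lists was 302 bp. That of Mxd4 on chromosome 5 ran from 34185126 to 34190008 in Early-B (4883 bp, pileup 113) and from 34185342 to 34189996 in progenitors (4655 bp, pileup 164), with upstream edges 12 bp apart and downstream edges 216 bp apart. Of 10849 coding gene starts covered in both lists, 14.6% had upstream edges within 50 bp of each other, a tolerance chosen after the members' values were seen. Max, Mxd1 and Mxd4 were within it. At the starts of Mycl, Mycn, Mnt and Mxi1 the upstream edges were 212 to 935 bp apart, where the median over all starts was 219 bp. Mxd1 spans 86647044 to 86669234 and Mxd4 34176580 to 34187710.

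Mxi1 had the most peaks, and its promoter table entries give 3 starts. It spans 53310128 to 53373293 on chromosome 19. The first start, at 53310506, was covered by a 6010-bp Early-B peak with a pileup of 227 and a 4810-bp progenitor peak with a pileup of 241. The Early-B peak began 1155 bp upstream of that start and the progenitor peak 375 bp upstream, so the earlier edge was in Early-B. The second start, at 53329413, is 18907 bp downstream of the first, and the third, at 53329695, is 282 bp further on. Both were covered by the same peak, from 53327262 to 53330783 in Early-B (3522 bp, pileup 115) and from 53328197 to 53330857 in progenitors (2661 bp, pileup 140). Here too the Early-B peak reached 935 bp further upstream. The marked starts show that both promoter regions of this gene carried H3K4me3 in both lists.

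A pair of smaller Mxi1 peaks between those promoters was also shared. The one from 53317741 to 53319216 in Early-B (1476 bp, pileup 57.8) met a progenitor peak of 2023 bp with a pileup of 39.4; here the Early-B pileup was the greater. The one from 53325356 to 53326036 (681 bp, pileup 24.8) met a progenitor peak of 890 bp with a pileup of 44.1. Gm30541, a long noncoding RNA gene on the opposite strand, spans 53306741 to 53326867 and has an annotated start at 53325815 inside that last peak in both lists, so it cannot be assigned to Mxi1 alone.

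Mnt, the antagonist that is expressed in most cell types, spans 74830806 to 74845725 on chromosome 11. Its start peak ran from 74827115 to 74833901 in Early-B (6787 bp, pileup 115) and from 74827834 to 74835143 in progenitors (7310 bp, pileup 154). The Early-B peak lay further upstream, by 719 bp, and the progenitor peak further downstream, by 1242 bp. A shared peak inside the gene, beginning 6285 bp past the start in Early-B and 5816 bp past it in progenitors, ran from 74837209 to 74839728 in Early-B (2520 bp, pileup 56.6) and from 74836740 to 74839646 in progenitors (2907 bp, pileup 78.1). Past the gene's end, a 543-bp Early-B peak (pileup 11.9, −log10 p 1.90) met a 1204-bp progenitor peak (pileup 21.8, −log10 p 6.51) that stops 292 bp before the neighbour Sgsm2. The start peak in Early-B begins 260 bp beyond the end of Mettl16. Whether peaks inside these genes lie in exons or introns was not analysed here.

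Every progenitor peak at the members met an Early-B peak, and 13 of the 16 Early-B peaks met a progenitor peak. The 3 that met none were a 442-bp peak in Mxd1 (chromosome 6, 86654721 to 86655162), a 270-bp peak in Mxi1 (chromosome 19, 53365142 to 53365411) and a 521-bp peak in Mnt (chromosome 11, 74840957 to 74841477). Their pileups were 12.1, 10.4 and 11.8 and their −log10 p values 1.28, 1.30 and 1.4, near the list's lowest value of 1.01, and none reached the authors' q of 0.05. Nor did the 543-bp Early-B peak past the end of Mnt, which is counted among the 13 (−log10 q 0.381). With peaks limited to q of at most 0.05, the progenitor peak it meets is left unmatched. The Mxd1 one also lies in Gm38850, a long noncoding RNA gene. In windows of all protein-coding genes, 38.5% of Early-B peaks met no progenitor peak and 21.2% of progenitor peaks met no Early-B peak. Those private Early-B peaks had a median pileup of 15.1 and 49.3% of them had q above 0.05, and all 3 of the members' private peaks lay below that median.

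The length covered by peaks was next compared between lists. In the span and 5 kb around it, Early-B peaks covered 11959 bp at Mxi1, 10371 at Mnt, 8141 at Myc, 7612 at Mycn, 6320 at Max, 4892 at Mxd1, 4883 at Mxd4 and 2001 at Mycl. Progenitor peaks covered 11421 bp at Mnt, 10384 at Mxi1, 9024 at Mycn, 6984 at Myc, 5397 at Max, 4898 at Mxd1, 4655 at Mxd4 and 3515 at Mycl. Mxi1 and Mnt headed both orders and Mycl closed both. Early-B cover was the greater at 4 members, by 1575 bp at Mxi1, 1157 at Myc, 923 at Max and 228 at Mxd4. It was the smaller at the other 4, where Early-B minus progenitor was -1514 bp at Mycl, -1412 at Mycn, -1050 at Mnt and -6 at Mxd1. Over the 14107 genes with a peak in both lists, Early-B cover was greater at 67.6% and smaller at 32.4%. Summed over the 8 members, the cover was 56179 bp in Early-B and 56278 bp in progenitors. The median cover over the members was 6966 and 6190.5 bp, against 4204 and 3454 bp over all genes with a peak in both lists.

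**Figure D2:**
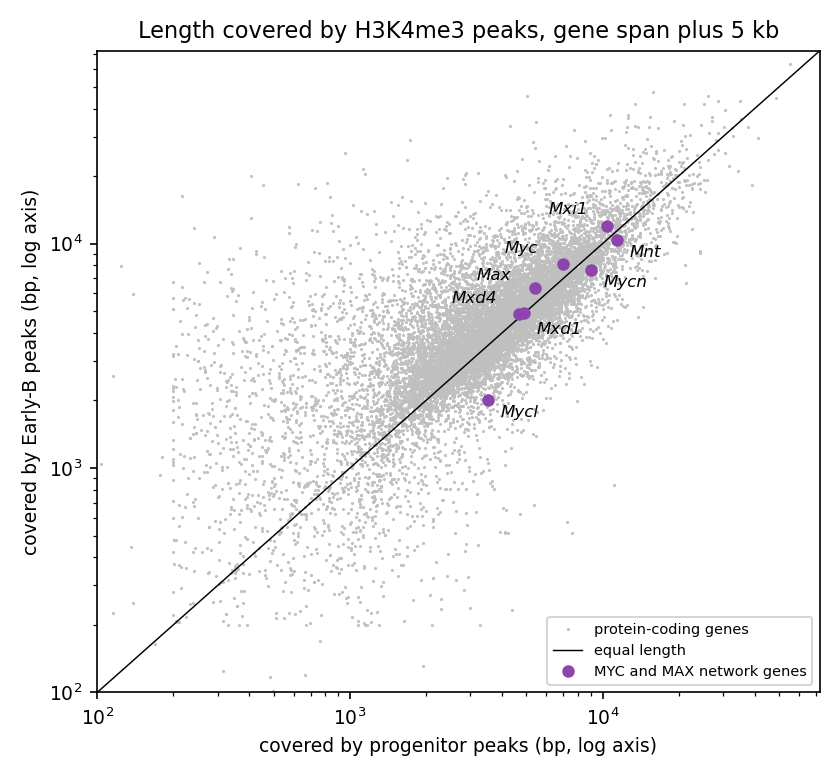
Length covered by H3K4me3 peaks in the gene span plus 5 kb, in bp on log axes, with the progenitor list across and the Early-B list up. Grey points are the 14107 protein-coding genes with a peak in both lists, purple points the 8 network genes, and the line marks equal length; 4 network genes lie above the line, Mxd1 is on it to within 6 bp, and Mycl lies furthest below at 2001 against 3515 bp.

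The bases covered in both lists made up 95.3% of those covered in either at Mxd4, 85.8% at Myc, 84.5% at Max, 84.4% at Mycn, 83.3% at Mxd1, 74.7% at Mxi1, 70.6% at Mnt and 56.9% at Mycl. The median over the members was 83.8% and that over all genes with a peak in both lists 68.4%. Mycl alone was below the latter. Around starts, the Early-B peak reached further upstream at 6 of the members' 9 starts and further downstream at 3, where over all starts covered in both lists the shares were 68.4% and 56.1%. The 3 starts of Mxi1 are not independent, since a single peak covers the second and the third in each list.

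**Figure D3:**
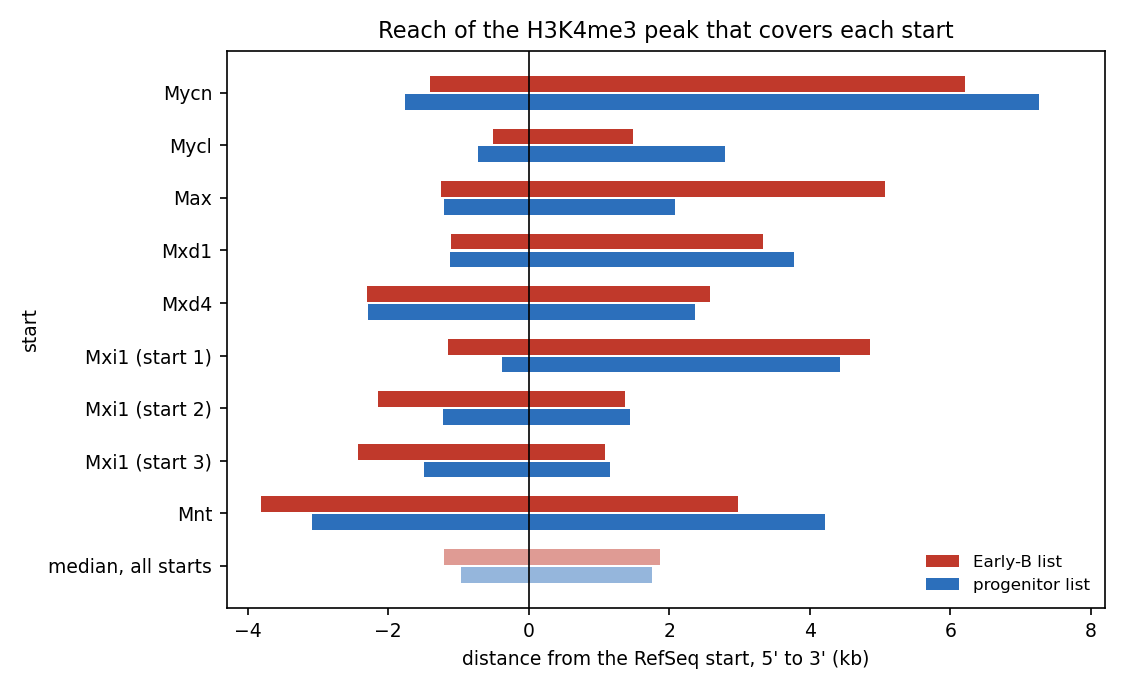
Reach of the H3K4me3 peak that covers each annotated start, in kb from the start in the direction of transcription, with Early-B in red and progenitors in blue. Pale bars at the bottom give the median over 10849 coding gene starts covered in both lists; Mycn reaches furthest downstream, to 6206 and 7257 bp, and Max differs most, with 5065 bp in Early-B and 2077 bp in progenitors.

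Highest pileup was lower in the Early-B list at all 8 members, which sets them little apart, because it was lower at 82.3% of genes with a peak in both lists. The median over those genes was 117 in Early-B and 151 in progenitors. The sources used here do not say how the authors scaled the lists against each other, so these values do not measure a change. Each gene's highest pileup was therefore ranked within its list among the same 14107 genes. Ranks of this kind still rest on the authors' value per peak, and the sources used here do not say whether that value is a mean over the peak or its maximum.

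By that rank Mxi1 and Myc stood near the top of both lists. Mxi1 was at rank 76 from the top in Early-B and 288 in progenitors, and Myc at 238 and 142. Mycn was at rank 13 in progenitors and at 1374 in Early-B. Max went from 184 in progenitors (percentile 98.7) to 4833 in Early-B (percentile 65.7), and Mycl from 4632 (67.2) to 10684 (24.3). The remaining antagonists were further down both lists than Myc, Mycn, Max and Mxi1. They stood below Mycl in progenitors and above it in Early-B. The percentiles in progenitors and Early-B were 58.3 and 47.3 for Mxd4, 51.6 and 48.4 for Mnt, and 35.2 and 32.1 for Mxd1. The rank was lower in Early-B at 7 of 8 members, against 50.9% of genes. It was lower by at least 20 percentile points at Max and Mycl, a size chosen after the pileups were seen and met by 7.12% of genes.

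Ranked on −log10 p in place of pileup, an alternative chosen after seeing the data, Max was at percentile 98.9 in progenitors and 69.2 in Early-B, and Mycl at 66.7 and 23.6. Mycn was at 99.9 and 89.2. Myc turned over, at 98.3 in progenitors and 98.6 in Early-B. At Max the Early-B peak is the longer and takes in the gap between the progenitor peaks and nearly all of both. Signal in that gap was not measured, and the part of the greater length in the lower pileup was not tested. At Mycl the Early-B peak is the shorter.

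**Figure D4:**
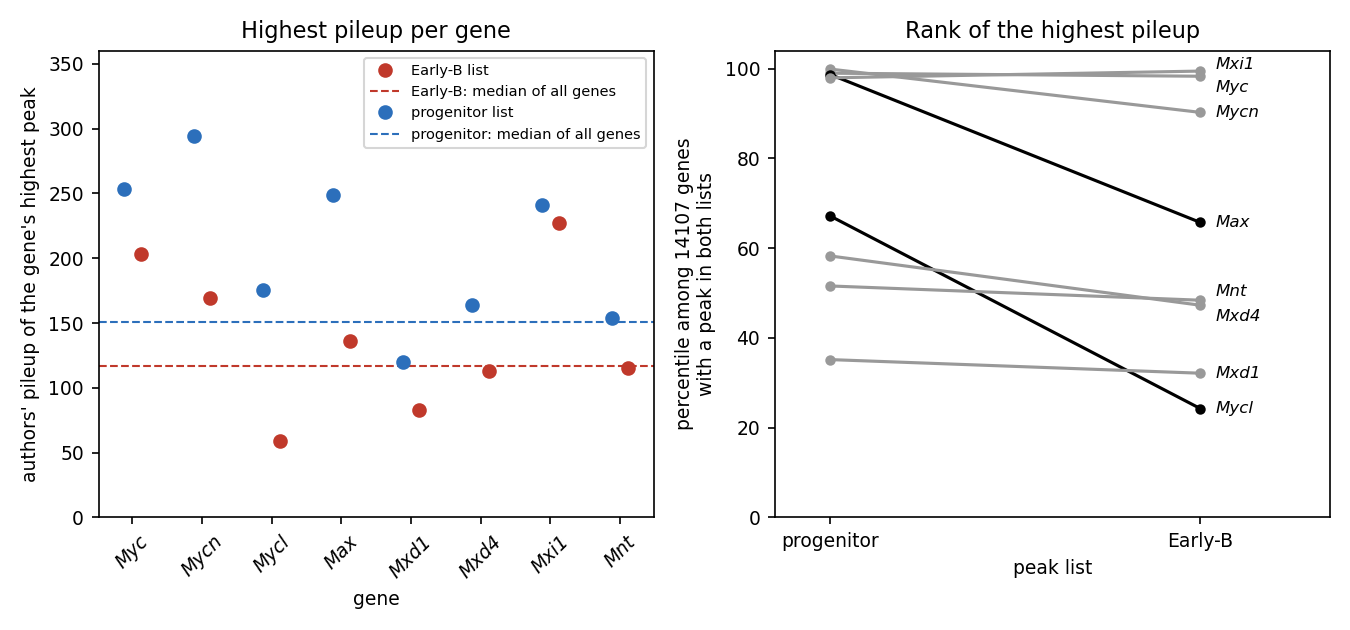
Left, the authors' pileup of the highest peak at each gene in the Early-B (red) and progenitor (blue) lists, with dashed lines at the medians of 117 and 151 over all genes with a peak in both. Right, the percentile of that value within each list among the same 14107 genes; black lines mark Max and Mycl, which differ by more than 20 points, and the other 6 genes are grey.

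The rest of the network and the genes around it were described with lists of 52 genes in all. Of these genes 51 had a peak in both lists, as did 64.5% of all protein-coding genes. The other 5 genes of the MAX and MLX network (Mxd3, Mga, Mlx, Mlxip and Mlxipl), 15 MYC cofactors and regulators of its turnover and 7 corepressors that MXD and MNT proteins bring in all had a peak in both. Of 25 MYC target genes 24 did. The exception was Tert, the catalytic subunit of telomerase, with a 1057-bp peak in Early-B (pileup 31.4) and none in progenitors. Early-B cover was the greater at 5 of the 5 network genes, 8 of 15 cofactors, 3 of 7 corepressors and 21 of 24 targets, to be read against the 67.6% of all genes. Mxd3, a further MXD gene and one linked to dividing cells, had a highest pileup of 193 in Early-B and 208 in progenitors. Ranked within each list, that value stood higher in Early-B, at percentile 97.1 against 88.7 in progenitors. The rank was also higher in Early-B at Mlxip (59.9 against 37.2). It was lower at Mga (29.5 against 43.0), Mlx (65.3 against 70.5) and Mlxipl (7.64 against 16.3). Over all genes with a peak in both lists it was lower in Early-B at 50.9%.

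The labelled cell types were checked against marker genes by the same rule. All 7 early B cell markers reported (Ebf1, Pax5, Cd79a, Cd79b, Blnk, Igll1 and Vpreb1) had more bp covered in Early-B, 105797 bp in sum against 32878 in progenitors with each base counted once. The sums include Ebf1 (24613 bp in Early-B and 14047 in progenitors), whose product the Early-B cells received through the vector. Whether reads from the vector add to the Early-B cover at Ebf1 was not tested. More bp in Early-B was found at 67.6% of all genes with a peak in both lists. Highest pileup was lower in Early-B at 2 of the 7, Ebf1 and Vpreb1, and at 82.3% of all those genes. Igll1 and Vpreb1 are neighbours whose windows overlap and share a peak in each list, so they are not separate. Of 12 stromal markers, 7 had a peak in Early-B only, a class that held 8.47% of all genes, and 5 in both, with 47318 and 12225 bp in sum, and none of the 12 lacked a peak in Early-B. Highest pileup at the 5 stromal markers with a peak in both lists had a median of 22.1 in Early-B and 16.8 in progenitors, and the highest at any of the 12 was 53.0 in Early-B, at Sparc, and 34.6 in progenitors, at Pdgfrb. The tallest peak of each of the 8 network genes stood above those values in the same list, most narrowly at Mycl in Early-B (59.1 against 53.0). Pileup at markers does not measure stromal signal at the members themselves. The part of stromal chromatin in the members' values was not tested. Myeloid markers covered 9623 and 9765 bp in sum, with Csf1r and Lyz2 unmarked in both, and T cell markers 28587 and 26899 bp, with Bcl11b unmarked in both. Early-B cover was greater at 4 of the 5 T cell markers with peaks and smaller at Gata3 (5659 against 9592 bp). The highest Early-B peak at Lck (pileup 138) has the same pileup and −log10 p as that at 1 of the corepressor genes, so it cannot be assigned to Lck alone.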

How the data were processed

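H3K4me3 ChIP-seq peaks were taken from 1 list per group. The tools listed per the submitters' processing notes are MACS 1.4.3 and Bowtie 1.1.2, and the builds GRCh38 and mm10. GRCh38 is a human build, and positions were read here as mm10. The columns look like broad peaks of a later MACS version, so which version wrote the lists is uncertain. How input was used, whether replicates were pooled and with which settings was not given in the sources used here. Pileup is a signal of coverage deposited by the authors, fold enrichment is the authors' ratio to a background, and the −log10 p-value and q-value columns, whose names are damaged in the file headers, were read as deposited from their values and order. Positions and lengths are other values deposited by the authors. The lists hold no counts, so depth is unknown.

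Peaks were joined to RefSeq genes of GRCm38.p6 within the span plus 5 kb, and called shared at an overlap of at least 1 bp. Cover was clipped to that window. Starts and promoter windows came from the RefSeq promoter table, matched by symbol, with 7 of 8 members found. Python 3.11.15, numpy 2.4.6, pandas 2.3.3 and matplotlib 3.10.9 were used, and the code was tested on simulated peaks. All 8 members are named. Other genes are named where they neighbour a member, have a peak in 1 list only or mark a cell type. Mxd3, Mga, Mlx, Mlxip and Mlxipl are also named, as the complete network list, and Pvt1 as Myc's neighbour. Members and lists were chosen with earlier results of these data known. One further early B cell marker of the list is not reported here. Samples of microRNA sequencing, Ago2 RIP and Early-T cells were left out, since no file of theirs was used here.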

Additional observations from a re-analysis of the deposited data

How the results depend on the processing

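All 8 members had a peak in both lists at windows of 0, 1 and 10 kb, at q of at most 0.05, at a −log10 p of at least 10 and at equal list lengths. Early-B cover was the greater at 4 or 5 members under 7 such alternatives, and by the rank of the highest pileup in place of cover the Early-B list was ahead at 1. Ranked on −log10 p, chosen after seeing the data, Early-B minus progenitor turned over at Myc, from -0.68 to 0.25 percentile points, and kept its sign at the other 7. Early-B peaks that met no progenitor peak numbered 3 or 4 with other windows and overlap rules. They numbered 0 at q of at most 0.05, 0 at −log10 p of at least 10 and 0 at equal lengths, since these settings remove the weak peaks themselves. Progenitor peaks that met no Early-B peak numbered 1 with the 10 kb window, and 1 under each of those 3 stricter settings, where the main count was 0. Of the 52 further genes, 50 or 51 had a peak in both lists under all 6 alternatives. No paired analysis was possible because each group has 1 peak list. With no depth and no replicate list, small differences in peak edges have no error to be set against.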

Other observations

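Near Myc, the first peak past the window on the higher-coordinate side in progenitors lay 47171 bp from the gene, at Pvt1, a long noncoding RNA gene next to Myc. It ran from 62037532 to 62041270 on chromosome 15 (3739 bp, pileup 119) and met an Early-B peak from 62037302 to 62041210 with a pileup of 132. The Early-B value was the greater there, while at Myc itself it was the smaller, 203 against 253, as at 82.3% of genes with a peak in both lists. How the lists were scaled against each other is not known, so these pileups do not measure a change. The only peaks of either list within 10 kb of a member but beyond 5 kb were 4. At Mxd4, peaks over the neighbours Haus3 and Poln began 6287 bp from the gene in Early-B and 5963 bp in progenitors, and a progenitor peak in Zfyve28 lay 7452 bp away (pileup 17.2). At Mxd1, an Early-B peak lay 6703 bp away (pileup 16.9).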
